A study of Homo sapiens with 12 samples.

Results

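The genes of heme synthesis were examined in RNA-seq of HUDEP-2, a line of immortalised human erythroid precursors derived from cord blood. The members are 9 genes picked by symbol and not by a rule on any measured value, though earlier results of these data were known. They are ALAS2, ALAS1, ALAD, UROS, UROD, CPOX, PPOX, FECH and SLC25A38. All 9 were found among the 54628 genes of the count table, and all 9 were among the 15492 genes that passed the filter on low counts. Further steps of the pathway are not analysed here. The 12 libraries form 4 groups of 3 replicates, sgControl PBS, sgControl SCF, sgEGR1 PBS and sgEGR1 SCF. sgControl is a scrambled guide and sgEGR1 is a guide to an element upstream of EGR1, and both were delivered in a lentiviral CRISPR interference vector that carries dCas9 fused to the KRAB repressor domain. GFP-positive cells were sorted after transduction. All groups had grown in medium with dexamethasone, stem cell factor (SCF), erythropoietin and doxycycline, and all were starved for 5 h before 1 h with PBS or with 50 ng/mL of SCF, the ligand of the Kit receptor. The study's methods call the replicates of its RNA-seq biological and individually isolated, but the labels do not say whether they were separate transductions, so p-values measure the spread between these libraries.

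Heme is built from glycine and succinyl-CoA. The pathway begins in the mitochondrion, continues through the cytosol and ends in the mitochondrion, where iron is inserted into protoporphyrin. The first enzyme, 5-aminolevulinate synthase, is rate limiting and exists in an erythroid form (ALAS2, X-linked) and a housekeeping form (ALAS1), which heme represses. During red cell maturation the erythroid transcription factors GATA1 and KLF1 drive much of the pathway, and translation of ALAS2 mRNA is governed by iron through an iron responsive element near its 5′ end. Defects in ALAS2 or SLC25A38 cause sideroblastic anaemia, and defects in the later enzymes cause porphyrias. The values below are levels of polyadenylated RNA and say nothing of enzyme activity or heme.

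The 3 genes of the first step are ALAS2, ALAS1 and SLC25A38, and the sequences before their start sites are shown because ALAS2 and ALAS1 lay on opposite sides of 0 in the SCF comparison. ALAS2 lies on the minus strand at chrX:55009055-55030977, ALAS1 on the plus strand at chr3:52198086-52214327 and SLC25A38 on the plus strand at chr3:39383370-39397351 (GENCODE, hg38). The windows are the 250 bases before the start site in RefSeq (GRCh38.p14), at chrX:55030978-55031227, chr3:52197833-52198082 and chr3:39383120-39383369. They are written 5′ to 3′ on the strand of the gene and hold no annotated exon. Capitals mark matches, on either strand, to the motifs searched, which were GCGTGGG and GCGGGGG for EGR factors, TGANTCA for AP-1, AGATAA and TGATAA for GATA factors, CCNCNCCC for KLF factors, and CAGCTG and CAGGTG for E-boxes.
ALAS2: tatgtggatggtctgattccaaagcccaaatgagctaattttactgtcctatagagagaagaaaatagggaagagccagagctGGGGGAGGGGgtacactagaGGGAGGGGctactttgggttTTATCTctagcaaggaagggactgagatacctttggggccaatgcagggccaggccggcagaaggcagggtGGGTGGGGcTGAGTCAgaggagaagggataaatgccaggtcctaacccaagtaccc
ALAS1: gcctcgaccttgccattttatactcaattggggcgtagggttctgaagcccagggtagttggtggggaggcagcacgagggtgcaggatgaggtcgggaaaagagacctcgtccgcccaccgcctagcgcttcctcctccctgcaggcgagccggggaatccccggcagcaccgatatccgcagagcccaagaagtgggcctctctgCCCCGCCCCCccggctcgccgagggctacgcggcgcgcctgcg
SLC25A38: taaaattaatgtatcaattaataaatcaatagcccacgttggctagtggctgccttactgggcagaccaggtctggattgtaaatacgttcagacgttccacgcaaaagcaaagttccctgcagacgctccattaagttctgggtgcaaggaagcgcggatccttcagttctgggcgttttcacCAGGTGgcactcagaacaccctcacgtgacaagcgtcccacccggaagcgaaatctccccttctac

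The ALAS2 window held an AP-1 match at -47 to -41 from the start, a GATA match on the opposite strand at -127 to -122 and 4 KLF matches, of which 2 overlap. The ALAS1 window held 2 overlapping KLF matches, and that of SLC25A38 held an E-box. A RefSeq window was at hand for 8 of the 9 genes, UROS being the other. Unlike the windows printed above, those of UROD, PPOX, CPOX, FECH and ALAD hold 174, 112, 37, 30 and 6 bases of annotated exons. The EGR match of FECH, at -14 to -8, lies among its 30. Among the 8 windows, an AP-1 match was found in 1, against 6.57% of all 35116 windows of this length. EGR matches were found in 3 (ALAD, CPOX and FECH), against 20.4% of all windows, and those of ALAD and CPOX overlap a KLF match. GATA matches were found in 2 (ALAS2 and CPOX), against 14.6%, KLF matches in 5, against 53.4%, and E-boxes in 3, against 28.7%. These matches describe letters in a window and no binding was measured here. The first 50 bases of the ALAS2 transcript held the letters CAGTGN, the loop of the iron responsive element, at bases 21 to 26, as did the first 50 bases at 6.36% of all start sites. The stretch at chrX:55030940-55030969 is shown on the transcribed strand with these letters in capitals because ALAS2 is the member whose mRNA is known for this element.
ALAS2 element: ttcgttcgtcctCAGTGCagggcaacaggt

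Library totals ranged from 23.5 to 32.04 megacounts, with every SCF library at 28.4 megacounts or more and every PBS library at 29.1 megacounts or fewer. Levels are given as counts per megacount of library total (CPM) scaled by TMM factors, which take depth out of the level. Of 12 erythroid markers all averaged over 1 CPM, with HBB at 13400 to 16000 CPM, TFRC at 3270 to 3760 CPM and GATA1 at 271 to 327 CPM, while HBG1, a near-identical copy of HBG2, was listed at 0 in at least 1 library. The summed CPM of the 12 erythroid markers was 25890 to 29990 in sgControl PBS, 25090 to 28720 in sgControl SCF, 27560 to 28310 in sgEGR1 PBS and 26430 to 26600 in sgEGR1 SCF. Of 5 megakaryocyte markers 1 averaged over 1 CPM, ITGA2B at 12 to 35.2 CPM, while PF4 and PPBP had 0 counts in every library. Of 4 mast cell markers 1 did, TPSAB1 at 84.9 to 209 CPM, while CPA3 stayed at or below 0.563 CPM. No myeloid or lymphoid marker averaged over 1 CPM, and MPO, ELANE and CD3E had 0 counts in every library. The summed CPM of the megakaryocyte list was 15.9 to 27 in sgControl PBS, 16.6 to 29.8 in sgControl SCF, 13.0 to 23.1 in sgEGR1 PBS and 12.9 to 35.6 in sgEGR1 SCF, and that of the mast cell list was 85.3 to 198, 85.9 to 209, 113 to 210 and 113 to 206. Their part in the results was not tested. EGR1 had 301, 152 and 192 counts in sgControl PBS, 6636, 7184 and 5454 in sgControl SCF, 48, 30 and 28 in sgEGR1 PBS, and 1171, 1654 and 6521 in sgEGR1 SCF. For the targeted gene, the library labelled sgEGR1 SCF replicate 3 had as many counts as the sgControl SCF libraries, and the counts of calls and the guide comparisons are also given without it. The 4 libraries numbered replicate 1 stood apart from the others, though unevenly. Within groups the chi-square per gene was 12 to 21 for pairs with replicate 1 and 4.46 to 9.05 for replicates 2 and 3. In sgControl SCF it was 12.1 for replicates 1 and 2 against 9.05 for replicates 2 and 3. The labels do not say why replicate 1 differs, and tests are therefore also given from a fit with a term for replicate 1.

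All 9 genes were detected in every library. Their levels over the 12 libraries are given first in CPM, which grow with transcript length and are therefore not ranked between genes (mean ± SD, n = 12). The erythroid synthase ALAS2 averaged 704 ± 56.2 CPM and the housekeeping synthase ALAS1 23.3 ± 1.72 CPM. SLC25A38, a glycine carrier of the mitochondrial inner membrane, averaged 72.2 ± 4.32 CPM. Of the cytosolic enzymes, ALAD, which joins a pair of aminolevulinate molecules, averaged 311 ± 26.6 CPM, UROS (uroporphyrinogen III synthase) 114 ± 10.7 CPM and UROD (uroporphyrinogen decarboxylase) 390 ± 25.9 CPM. Of the mitochondrial enzymes, CPOX (coproporphyrinogen oxidase) averaged 381 ± 37.3 CPM, PPOX (protoporphyrinogen oxidase) 167 ± 10.7 CPM and FECH, the ferrochelatase that inserts iron, 550 ± 70.9 CPM.

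Levels of different genes were ranked per kilobase of the canonical GENCODE transcript. On this scale ALAS2 (363 CPM per kb, range over 12 libraries 319 to 423) and UROD (327, range 299 to 369) overlapped at the top. CPOX came next at 141 CPM per kb (120 to 165) and overlapped neither neighbour. ALAD (99.5), PPOX (96.5), UROS (85.2) and FECH (71.5 CPM per kb) followed, and each of these overlapped the next in its range over the libraries. SLC25A38 at 34.4 CPM per kb (30.5 to 38.2) and ALAS1 at 9.79 CPM per kb (8.57 to 11) stood apart below them. The order depends on the transcript taken for each gene. FECH was divided by 7689 bases, the longest transcript of the set. CPOX shares 163 bases of its exons with another protein-coding gene on the same strand, 6.02% of its canonical length, so a part of its counts could belong to either.

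**Figure D1:**
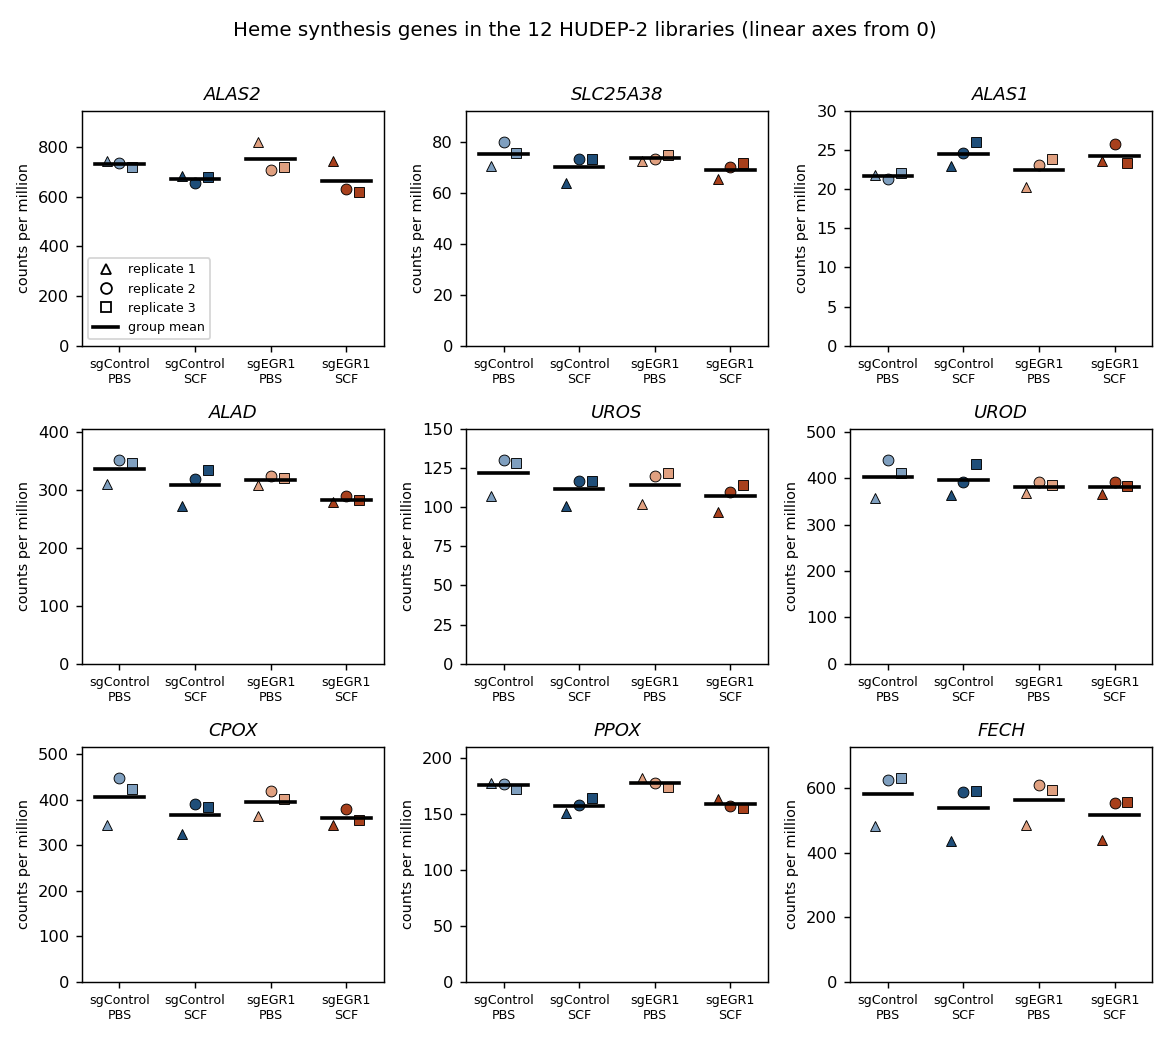
Levels of the 9 heme synthesis genes in CPM (vertical axes, linear from 0) in each of the 12 libraries, grouped on the horizontal axes by guide and treatment. Triangles, circles and squares are replicates 1, 2 and 3, and black lines are group means. PPOX lies between 150 and 164 in the 6 SCF libraries and between 172 and 182 in the 6 PBS libraries, and the replicate 1 libraries of FECH and UROS lie below the others of their group.

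Whether an hour of SCF changed these genes was tested first with an average over both guides, using the quasi-likelihood F test of edgeR with Benjamini-Hochberg adjustment over all genes tested. PPOX fell and was the 1 member of 9 called. The other 7 genes of negative sign and ALAS1, which had a positive sign, did not pass the threshold in this fit. Over all genes tested, 9.03% were called in this comparison and 3.45% were called lower. With the term for replicate 1 in the model, 7 members fell (PPOX, FECH, UROS, ALAS2, ALAD, CPOX and SLC25A38), 1 rose (ALAS1) and UROD was not called. The backgrounds in that fit were 8.29% of all genes called lower and 10.2% called higher. The fitted differences themselves hardly moved between the fits. Their median over the 9 members was a log2 difference of -0.12 in both, beside -0.0045 for all genes tested, and the members ranged from -0.16 to 0.14. The members lay within the spread of all genes. In the fit without the term, 19.2% of all genes lay below PPOX, the lowest member, 46.7% below UROD and 81.6% below ALAS1.

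PPOX oxidises protoporphyrinogen in the mitochondrion and was called in both fits. In sgControl cells its level was 178, 177 and 172 CPM after PBS and 150, 158 and 164 CPM after SCF. For sgEGR1 cells these values were 182, 177 and 174 CPM after PBS and 164, 157 and 155 CPM after SCF. The PBS and SCF libraries did not overlap under either guide. Averaged over the guides, PPOX fell by 10.6% (log2 fold change -0.16, SE 0.03, adjusted p = 0.00575), and the adjusted p was 0.00110 with the term for replicate 1. All 6 SCF libraries lay below the PBS mean of their guide, as they also did for ALAS2, SLC25A38, ALAD, UROS and CPOX. The share of all genes for which they did was not counted. PPOX stayed called in all 20 alternative fits, with an adjusted p of 0.0214 without the library labelled sgEGR1 SCF replicate 3. In bulk RNA a lower level in each cell and fewer cells that express the gene cannot be told apart. Within one guide alone the adjusted p was 0.0791 in sgControl and 0.0675 in sgEGR1 cells, which became 0.0230 and 0.0183 with the term for replicate 1. PPOX lies at chr1:161166056-161178013 on the plus strand, and its exons outside the canonical transcript share 1118 bases with B4GALT3 on the opposite strand. B4GALT3 ranged from 29.4 to 33.1 CPM over the 12 libraries, and the strand setting of the counting is not given in the sources used here.

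ALAS2 showed the second largest negative difference. Its level in sgControl cells was 742, 735 and 717 CPM after PBS against 683, 653 and 679 CPM after SCF, without overlap. In sgEGR1 cells it was 821, 708 and 720 CPM after PBS and 743, 629 and 619 CPM after SCF. There the replicate 1 libraries were the highest of both groups and the groups overlapped. The averaged log2 difference was -0.15 (SE 0.05), with an adjusted p of 0.0945 that became 0.00600 with the term for replicate 1, and 6 of 6 SCF libraries lay below the PBS mean of their guide. ALAS2 shares 3 exon bases, 0.155% of its canonical transcript, with APEX2 on the opposite strand.

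ALAS1, the housekeeping synthase, went the other way. It had 21.9, 21.3 and 22.1 CPM in sgControl PBS and 23, 24.6 and 26.1 CPM in sgControl SCF, without overlap. In sgEGR1 cells the values were 20.4, 23.2 and 23.9 CPM after PBS and 23.7, 25.8 and 23.3 CPM after SCF, which overlapped. All 6 SCF libraries lay above the PBS mean of their guide. The averaged log2 difference of 0.14 (SE 0.05) had an adjusted p of 0.124, and ALAS1 rose with the term for replicate 1 (adjusted p = 0.0402). This call was kept in 3 of the 12 fits with that term that each left out 1 library, and 1 of the 3 was the fit without sgEGR1 SCF replicate 3.

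The ratio of ALAS2 to ALAS1 counts needs no scaling by library size. It averaged 33.7 ± 1.03 in sgControl PBS, 27.4 ± 2.04 in sgControl SCF, 33.7 ± 5.76 in sgEGR1 PBS and 27.4 ± 3.60 in sgEGR1 SCF (SD, n = 3 each). The 3 sgControl PBS libraries, at 32.5 to 34.5, lay above the 3 sgControl SCF libraries, at 26.0 to 29.8. In sgEGR1 cells the PBS range of 30.2 to 40.3 overlapped the SCF range of 24.4 to 31.4. The ratio after SCF was lower by 0.29 on the log2 scale averaged over the guides (-18.4%), with a two-sided p of 0.015 in an exact permutation test of treatment labels within each guide over 400 arrangements, of which the smallest possible p is 0.005. Between the guides the mean log2 ratio differed by -0.0081 (exact permutation p = 0.915). Both genes were described above, so the ratio is not a further observation of either.

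**Figure D2:**
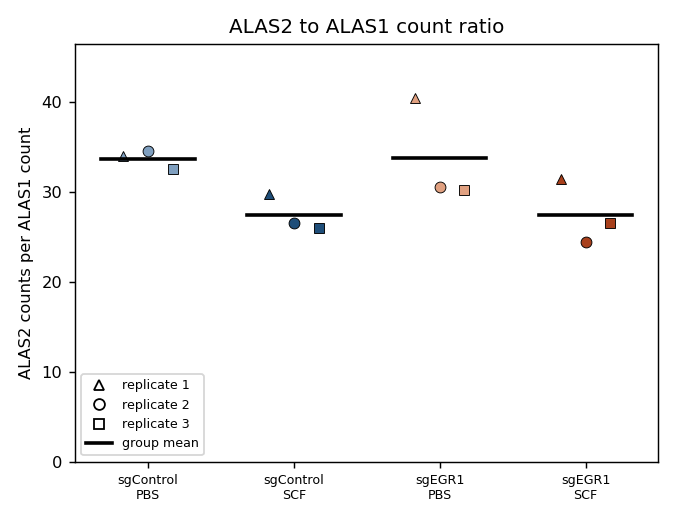
ALAS2 counts per ALAS1 count (vertical axis, linear from 0) in each of the 12 libraries by guide and treatment. Symbols are replicates 1 to 3 and black lines are group means, which are 33.7 after PBS and 27.4 after SCF under both guides.

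SLC25A38 supplies glycine to the first step. In sgControl cells it had 70.8, 80.3 and 75.6 CPM after PBS and 64.1, 73.6 and 73.3 CPM after SCF, with overlap. In sgEGR1 cells it had 72.7, 73.3 and 75 CPM after PBS, all above the 65.6, 70.2 and 72.0 CPM after SCF. The averaged log2 difference was -0.10 (SE 0.05, adjusted p = 0.230). With the term for replicate 1 the adjusted p was 0.0343, a call that was kept in 3 of 12 fits that each left out 1 library.

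ALAD and UROS act in the cytosol. ALAD, at chr9:113386312-113401290, had 310, 352 and 347 CPM in sgControl PBS and 271, 319 and 335 CPM in sgControl SCF, and these overlapped. In sgEGR1 cells the PBS libraries, at 308, 324 and 321 CPM, lay above the SCF libraries, at 279, 289 and 282 CPM. The averaged log2 difference of ALAD was -0.14 (adjusted p = 0.104, and 0.00665 with the term for replicate 1). UROS, at chr10:125784980-125823258, had 107, 130 and 128 CPM in sgControl PBS, 101, 117 and 117 CPM in sgControl SCF, 102, 120 and 122 CPM in sgEGR1 PBS, and 97.2, 110 and 114 CPM in sgEGR1 SCF. Replicate 1 was the lowest library in all 4 groups of UROS, and PBS and SCF libraries overlapped under both guides. Its averaged log2 difference was -0.11 (adjusted p = 0.371, and 0.00365 with the term for replicate 1).

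UROD, the last enzyme of this cytosolic stretch, differed least of the 9 genes in the SCF comparison. It lies at chr1:45010950-45015575, and its exons outside the canonical transcript share 375 bases with HECTD3 on the opposite strand. HECTD3 ranged from 106 to 125 CPM over the libraries, and the strand setting of the counting is not given. UROD had 356, 440 and 410 CPM in sgControl PBS and 364, 392 and 430 CPM in sgControl SCF. In sgEGR1 cells UROD had 369, 392 and 385 CPM after PBS and 367, 392 and 383 CPM after SCF, nearly equal number for number. The averaged log2 difference was -0.02 with a 95% confidence interval of -0.13 to 0.10 (adjusted p = 0.914), and its sign turned on total counts without TMM. With the term for replicate 1 the interval was -0.09 to 0.06, so that a fall of UROD by the -0.16 of PPOX lay outside it.

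CPOX and FECH act with PPOX in the mitochondrion. CPOX, at chr3:98579446-98593648, had 344, 448 and 423 CPM in sgControl PBS and 324, 391 and 384 CPM in sgControl SCF. In sgEGR1 cells it had 364, 420 and 402 CPM after PBS and 344, 380 and 354 CPM after SCF. The groups overlapped under both guides, and 6 of 6 SCF libraries lay below the PBS mean of their guide. The averaged log2 difference was -0.14 (adjusted p = 0.259, and 0.0138 with the term for replicate 1). FECH, at chr18:57544377-57586732, spread most over the libraries. It had 483, 625 and 632 CPM in sgControl PBS, 435, 588 and 592 CPM in sgControl SCF, 485, 610 and 596 CPM in sgEGR1 PBS, and 440, 553 and 558 CPM in sgEGR1 SCF. Each replicate 1 library of FECH lay below every replicate 2 and 3 library, and 4 of 6 SCF libraries lay below the PBS mean of their guide. Without the term for replicate 1 the averaged log2 difference of -0.12 had an SE of 0.10 (adjusted p = 0.569). The term brought the SE to 0.02 at the same difference (adjusted p = 0.00260).

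**Figure D3:**
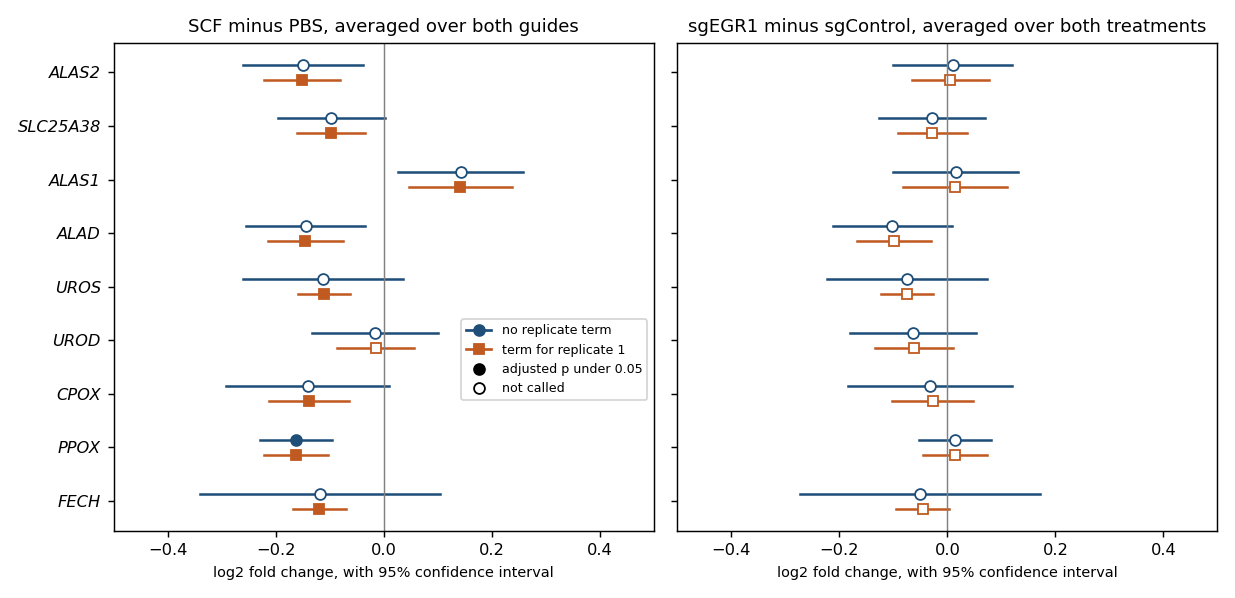
Fitted log2 fold changes (horizontal axes) with 95% confidence intervals for the 9 genes, for SCF against PBS averaged over both guides (left) and for sgEGR1 against sgControl averaged over both treatments (right). Blue circles are the fit without and orange squares the fit with a term for replicate 1, and filled symbols have an adjusted p under 0.05. On the left 1 symbol is filled without the term and 8 with it, and on the right none is filled.

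Within each guide alone, 0 of 9 members were called by edgeR without the replicate term, beside 2.89% of all genes in sgControl and 2.59% in sgEGR1 cells. At an unadjusted p under 0.05 there were 2 members in sgControl and 3 in sgEGR1 cells, beside 2222 and 2328 of the 15492 genes tested. DESeq2 called 1 member (PPOX) under each guide, and its totals over all genes are given with the alternatives below. With the term, PPOX, UROS and FECH fell in sgControl cells (3 of 9, beside 3.04% of all genes called lower). In sgEGR1 cells PPOX, FECH, ALAS2 and ALAD fell (4 of 9, beside 3.52%). The 4 calls in sgEGR1 cells became 0 when the library labelled sgEGR1 SCF replicate 3 was left out, and the averaged count then went from 8 to 7 members. The share of all genes called without that library is not given for these SCF comparisons. Counted by CPM alone, 2 members (ALAS2 and PPOX) were lower without overlap in sgControl SCF and 1 (ALAS1) was higher, where 9.24% and 10.4% of all genes were. In sgEGR1 cells 3 members (SLC25A38, ALAD and PPOX) were lower without overlap and 0 higher, where 10% and 11.2% of all genes were.

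Within the replicate 1 libraries alone, 15 of the 18 differences of gene and guide were lower after SCF and 3 were higher. In replicates 2 and 3 alone, 16 were lower and 2 higher, the latter being ALAS1 under both guides. These sets hold 4 and 8 libraries, so each replicate 1 difference sets a single SCF library against a single PBS library. Genes of the same libraries share their noise, and the 18 differences are not independent observations. The share of all genes was not counted within these sets. In the averaged comparison without the term, 51.5% of all genes had a negative sign. PPOX differed by -0.24 in sgControl and -0.16 in sgEGR1 cells on the log2 scale within replicate 1, and by -0.12 and -0.17 within replicates 2 and 3. ALAS2 differed by -0.12 and -0.14 within replicate 1 and by -0.13 and -0.20 within the others.

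**Figure D4:**
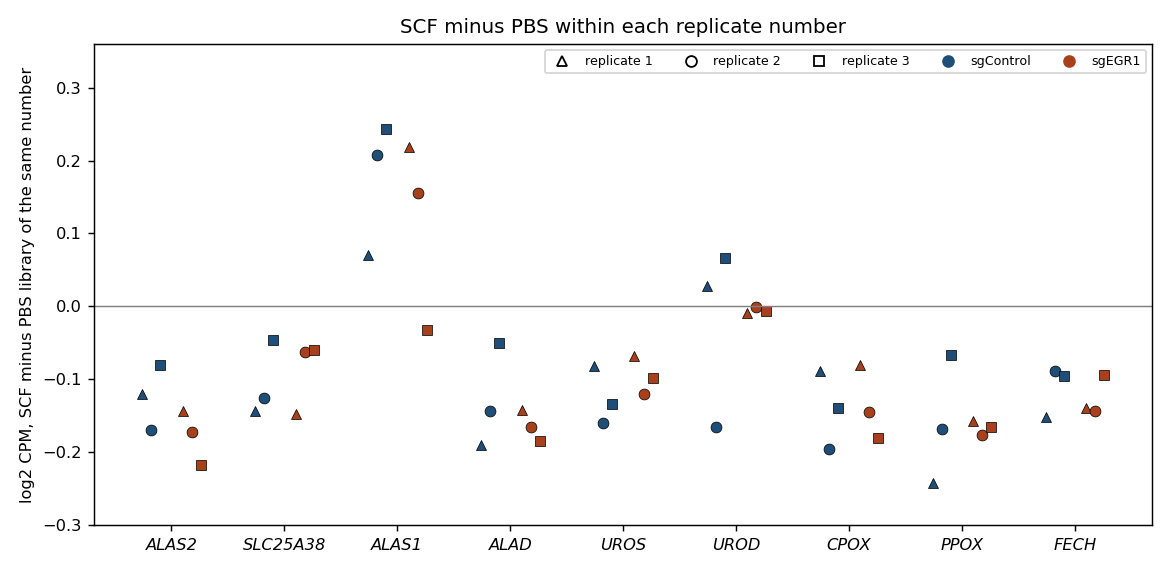
Difference in log2 CPM between the SCF and the PBS library with the same replicate number (vertical axis) for each of the 9 genes. The numbers were not taken to pair SCF with PBS libraries, and only replicate 1 was set apart from the others. Blue is sgControl and red sgEGR1, and triangles, circles and squares are replicates 1, 2 and 3. All 6 points of ALAS2, SLC25A38, ALAD, UROS, CPOX, PPOX and FECH lie below 0, and 5 of the 6 points of ALAS1 lie above it.

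The members also differed between replicate 1 and the other replicates, in the fit that holds a term for it. FECH was lower in replicate 1 by 0.37 on the log2 scale (-22.4%, adjusted p = 4.59e-07), UROS by 0.23, CPOX by 0.22, UROD by 0.15, ALAD by 0.13 and SLC25A38 by 0.12. ALAS2 was higher by 0.13. These 7 members were called (6 lower, 1 higher) beside 13.4% of all genes called lower and 13.1% called higher, and ALAS1 and PPOX were not called. For 5 of the 6 that were lower, this difference was at least as large as the SCF difference of the same gene, ALAD being the exception. No cause for the difference between replicates was tested.

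Whether repression at the EGR1 element went with other levels of these genes was asked by comparing sgEGR1 with sgControl under each treatment. All 9 genes overlapped between the guides after PBS and after SCF, where 4.66% and 3.53% of all genes were lower in sgEGR1 without overlap. edgeR called 0 of 9 members after PBS, after SCF, averaged over both treatments or for the difference of the SCF response between guides, and 0% of all genes were called in these 4 comparisons. No member reached an unadjusted p under 0.05 by edgeR in any of them, and DESeq2 called 0 members. With a term for each replicate number (the replicate block), 1 member did after PBS, 1 after SCF and 2 averaged. Of all 15492 genes tested, 1585, 875 and 1821 did. The lowest of these member p-values by edgeR was 0.00728 (adjusted p = 0.237). With the term for replicate 1 the shares of all genes called were 0.0258% after PBS, 0.0129% after SCF and 0.374% averaged, and members again numbered 0. Leaving out sgEGR1 SCF replicate 3 gave 2 calls of any gene after SCF and 22 averaged, and 38 and 233 with the term as well, so the background depends on this library, and 0 members were called in each of these fits. The largest averaged difference was that of ALAD, at -0.10 on the log2 scale with a 95% confidence interval of -0.21 to 0.01 (adjusted p = 0.969 by edgeR). With the term, ALAD (-0.10) and UROS (-0.07) had unadjusted p-values of 0.00838 and 0.00538 by edgeR and adjusted p-values of 0.229 and 0.201. Without sgEGR1 SCF replicate 3 as well, their averaged differences were -0.09 and -0.08 and their adjusted p-values 0.293 and 0.171 by edgeR. For ALAS2 the averaged difference was 0.01, with an interval of -0.10 to 0.12.

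No member had an SCF response called different between the guides at this depth and number of libraries. The difference of the log2 response, sgEGR1 minus sgControl, ranged from -0.07 (ALAS1) to 0.03 (UROS) over the 9 genes. Its 95% confidence interval was -0.14 to 0.12 for PPOX and -0.27 to 0.17 for ALAS2. The sgControl response was -0.16 for PPOX and -0.12 for ALAS2, estimated from libraries that also enter these intervals. EGR1 itself still rose after SCF in sgEGR1 cells, by 6.22 on the log2 scale against 4.66 in sgControl cells. Its difference of response was 1.56, and 0.514 without sgEGR1 SCF replicate 3. Whether the falls depend on EGR1 was therefore not tested. Without that library the intervals were -0.14 to 0.157 for PPOX and -0.234 to 0.225 for ALAS2. With the term for replicate 1 and all libraries they were -0.13 to 0.11 and -0.19 to 0.09. With this term the FECH interval narrowed from -0.46 to 0.43 to -0.11 to 0.08. With the term and without sgEGR1 SCF replicate 3, the 9 differences ranged from -0.03 (ALAS2) to 0.06 (CPOX) and none was called. In that fit the interval was -0.18 to 0.13 for ALAS2 and -0.12 to 0.14 for PPOX. For EGR1, the targeted gene, the averaged guide difference was -1.81 on the log2 scale (adjusted p = 0.669 by edgeR), and -1.87 (adjusted p = 0.160) with the term. Without sgEGR1 SCF replicate 3 it was -2.34 and EGR1 was called lower, with adjusted p-values of 0.0026 without and 0.00035 with the term by edgeR.

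Genes that serve the pathway were counted in 3 lists. Of 28 genes for mitochondrial transport, iron-sulfur cluster assembly and supply of precursors, all were tested and 3 fell after SCF averaged over the guides, beside 3.45% of all genes. These were SLC25A37 (mitoferrin, which brings iron into erythroid mitochondria, log2 fold change -0.18), CLPX (an unfoldase that activates ALAS, -0.16) and IBA57 (an iron-sulfur assembly factor, -0.19). The list's median was -0.02, and with the term for replicate 1 it had 7 genes lower and 2 higher, where 8.29% and 10.2% of all genes were. Of 15 genes for heme export, breakdown and use, 13 were tested and 0 were called without the term, with 4 at an unadjusted p under 0.05 beside 3514 of all 15492 genes, and 1 rose and 1 fell with it. Of 13 transcription factors and iron regulators, 12 were tested and 1 fell, FOXO3 (a forkhead factor, -0.19), and with the term 3 fell, among them KLF1 (-0.11) and TAL1 (-0.08). The lists had medians of -0.01 and -0.07 beside -0.0045 over all genes, and FLVCR2, HMOX2 and PPARGC1A were not tested, with at most 7, 4 and 0 counts in a library.

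Over the 8716 other genes that averaged 10 CPM or more, those whose log2 CPM ran most like a first-step member over the 12 libraries were taken as a description. For ALAS2 these were EIF2AK1 (the heme-regulated kinase of eIF2, Pearson r = 0.944), TBC1D15 (0.932) and DNAJB2 (0.922). Over the 8 libraries of replicates 2 and 3 the coefficients were 0.906, 0.916 and 0.961. ALAS1 ran most like ZNF207 (0.922), AAR2 (0.915) and GPD2 (0.906). SLC25A38 ran most like USP48 (0.930), CCNB2 (0.927) and UFL1 (0.926), and without replicate 1 these came to 0.756, 0.745 and 0.806. The libraries share treatment, guide and replicate set, and the coefficients carry all of these.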

How the data were processed

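RNA-seq was performed on HUDEP-2 cells in 4 groups of 3 libraries. The authors used HISAT for alignment to hg38 and StringTie for the estimated counts of each gene that they deposited. These were whole numbers, with 1 column per library and 0 other columns of per-sample values. The labels and the study's methods name different library kits, and annotation release, multimapping and strand use in counting are not given in the sources used here. Columns with a guide code were taken as sgEGR1, the only construct besides the control.

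Counts were tested with the edgeR 4.0.16 quasi-likelihood F test in R 4.3.3, with all 12 libraries, 1 coefficient per group, TMM factors and filterByExpr. The threshold was an adjusted p (Benjamini-Hochberg, over the 15492 genes tested) under 0.05. CPM are counts per megacount scaled by TMM. Fits with a term for replicate 1 or a replicate block, DESeq2 1.42.0, other scalings, no filter and left-out libraries were the alternatives. Residuals of same-numbered libraries correlated between guides (0.232, 0.103 and 0.119 after PBS and 0.269, 0.102 and 0.126 after SCF), so the block applies to the guide comparisons. Between SCF and PBS they correlated at 0.272, 0.00766 and 0.108 in sgControl and at 0.23, 0.0749 and 0.062 in sgEGR1 cells. These ranges overlap those between guides, and not taking the numbers to pair SCF with PBS libraries was a choice. The script was tested on simulated data. Each pair of replicates differed by more than sampling noise (chi-square per gene at least 4.46).

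Named genes were the 9 members, EGR1, list genes called in a comparison (at most 8) and, for ALAS2, ALAS1 and SLC25A38, the 3 genes of highest Pearson r. KLF1, TAL1, B4GALT3, HECTD3 and APEX2 were added after their values or positions were seen. Members and lists were chosen with earlier results of these data known. Gene positions are from GENCODE on hg38 and promoter sequences from RefSeq on GRCh38.p14. The 8 promoter entries used equal the hg38 genome.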

Additional observations from a re-analysis of the deposited data

How the results depend on the processing

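PPOX kept its direction and its call in the averaged SCF comparison under all 20 alternatives, with log2 differences of -0.18 to -0.14 and adjusted p-values of 1.33e-05 to 0.0214. The count of members called in that comparison was 1 in the main model, 7 with a replicate block, 8 with a term for replicate 1 (7 with that term and without sgEGR1 SCF replicate 3), 6 in replicates 2 and 3 only, 3 with DESeq2, and 1 to 2 when 1 library was left out, the 2 arising without sgEGR1 SCF replicate 1. In sgControl cells it was 0, against 2 with the block, 3 with the term (2 without sgEGR1 SCF replicate 3) and 1 with DESeq2. In sgEGR1 cells it was 0, against 3 with the block, 4 with the term, 3 in replicates 2 and 3 only and 1 with DESeq2. Replicate numbers were not taken to pair SCF with PBS libraries, so the block is not used for those calls. In the guide comparisons and the difference of responses the block changed no call of a member (0 in each). Calls over all genes moved likewise. They numbered 1399 in the averaged SCF comparison, 2799 with the block and 2868 with the term. In sgControl cells they numbered 448, 1184, 1289 and, with DESeq2, 759. In sgEGR1 cells they numbered 402, 1235, 1326 and 773. Single left-out libraries gave as few as 194 and 176 in the 2 guides. Where no total of all genes is given for a fit, its member count stands without a background. The averaged guide comparison called 0 genes, 49 with the block, 58 with the term and 28 with DESeq2, and 22 without sgEGR1 SCF replicate 3, or 233 with the term as well. UROD turned positive on total counts without TMM (0.00783) and without any 1 of sgControl PBS replicate 2, sgControl SCF replicate 1 or sgEGR1 SCF replicate 1, with a range of -0.0529 to 0.0205 over single left-out libraries and no call. The ALAS2 to ALAS1 ratio in replicates 2 and 3 only differed by -0.30 with an exact permutation p of 0.0556, the smallest those 8 libraries allow, and single left-out libraries gave -0.35 to -0.23. Alternatives with the term and 1 library left out were chosen after seeing the data and called 6 to 7 members, with PPOX, FECH, UROS, ALAS2, ALAD and CPOX called in 12 of 12. Scaling moved the median of all genes from -0.0045 (TMM) to 0.019 (total counts). The counts depend on how replicate 1 is modelled, and the cause of its difference was not tested.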

Other observations

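Genes around heme turnover also differed between replicate 1 and the other replicates in the fit with a term for it. HMOX1, the inducible heme oxygenase that breaks heme down, was higher in replicate 1 by 1.30 on the log2 scale (adjusted p = 1.69e-08 by edgeR). Its 4 replicate 1 libraries had 23.3 to 25.0 CPM and the other 8 had 8.91 to 11.1 CPM. Among the 28 genes for mitochondrial transport, iron-sulfur clusters and precursors, 12 were lower in replicate 1 and 2 were higher, where 13.4% and 13.1% of all genes were. The lower ones included ISCA2 (-0.35) and GLRX5 (-0.32), both of iron-sulfur cluster assembly, and TMEM14C (-0.25), a carrier of porphyrin precursors. Among the 12 transcription factors and iron regulators tested, 4 were lower, with LMO2 (-0.31) the lowest, and 1 was higher (FOXO1, 0.48). These genes were named after their values were seen.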
